A study of Mus musculus with 9 samples.

Results

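The 45 genes described here are induced by interferon in mouse cells, by type I interferon, by type II interferon or by both. They were chosen by name, with earlier results of these data known. Among them are 4 guanylate-binding proteins (GBP), 4 immunity-related GTPases (IRG), 5 IFIT, 5 OAS and 2 MX genes. All 45 are among the 31232 genes of the table, and all 45 had enough counts to be among the 15774 genes tested. Polyadenylated RNA came from bEnd.3 cells, a brain endothelial line of the mouse that was immortalised with the middle T antigen of polyomavirus and grown in medium with fetal bovine serum. The cells lay on coverslips in a parallel-plate chamber under 1 of 3 flows, with 3 libraries for each. HSS is laminar flow at 20 dyne/cm2, set by the submitters for an early intracranial aneurysm. Vortex is vortex flow at 0.5 to 2 dyne/cm2, set for a late, enlarged aneurysm. PSS is laminar flow at 10 dyne/cm2, set for the shear of a normal brain vessel. The labels name no interferon and no virus in any group, and the time under flow could not be read from the sources used here.

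Type I interferons bind the receptor chains Ifnar1 and Ifnar2, whose kinases Jak1 and Tyk2 activate transcription factors, among them Stat2. Stat2 and Irf9 are subunits of the complex ISGF3, which binds the interferon-stimulated response element (ISRE) in promoters. Type II interferon acts through Ifngr1 and Ifngr2 and through factors that bind another element, called GAS. The products of the induced genes limit viruses and intracellular parasites, and brain endothelial cells, which form the blood-brain barrier, are known to respond to interferons of both types. GBP and IRG proteins are GTPases that coat the vacuoles of intracellular parasites and are known as strong targets of type II interferon in mouse cells. IFIT proteins bind viral RNA, OAS proteins are sensors of double-stranded RNA that activate RNase L, and MX proteins are dynamin-like GTPases that block viruses. These 3 families are known best as targets of type I interferon.

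The letters of the ISRE can be looked for in promoter sequence, which is given here for GBP, IRG, IFIT and OAS genes and for Stat2 and Isg15. Windows of 250 bases before to 50 bases after the start of the gene were taken from RefSeq on GRCm38.p6, a build other than that of the counts, and 35 of the 45 members had one. The letters searched for an ISRE-type match were GAAA, any 2 bases (NN) and GAAA again, on either strand, which reads TTTC, NN and TTTC on the other strand, and those for a GAS-type match were TTCNNNGAA, the same on both strands. An ISRE-type match was in 20 of the 35 members with a window (57.1%), against 1079 of all 27025 genes with one (3.99%). It was in 7 of 7 GBP and IRG genes, in 6 of 9 IFIT and OAS genes and in 7 of 19 other members. The MX genes had no window. A GAS-type match was in 13 of the 35 (37.1%), with 4 of 7 GBP and IRG genes and 2 of 9 IFIT and OAS genes, against 2582 of all genes (9.55%). Such a match is a description of the letters and not a site shown to be bound. The stretches are printed on the gene's own strand, 5′ to 3′, with an ISRE-type match in capitals (overlapping matches run together). Another match of Ifit1, Ifit3 and Ifit3b, and another window of Ifit1bl1 with a match, are not marked here.

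Gbp2, chr3:142620589-142620628, plus strand: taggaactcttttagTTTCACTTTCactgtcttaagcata
Gbp3, chr3:142559984-142560029, plus strand: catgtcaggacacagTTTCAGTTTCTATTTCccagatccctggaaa
Gbp5, chr3:142496754-142496793, plus strand: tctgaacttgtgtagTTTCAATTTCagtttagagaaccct
Gbp7, chr3:142530268-142530307, plus strand: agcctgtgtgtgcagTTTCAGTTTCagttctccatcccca
Igtp, chr11:58199507-58199546, plus strand: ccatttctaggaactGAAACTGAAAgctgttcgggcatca
Irgm2, chr11:58214898-58214937, plus strand: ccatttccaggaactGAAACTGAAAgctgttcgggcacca
Irgm1, chr11:48871420-48871465, minus strand: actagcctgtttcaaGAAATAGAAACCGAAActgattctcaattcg
Ifit1, chr19:34640789-34640828, plus strand: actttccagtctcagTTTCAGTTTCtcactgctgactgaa
Ifit3, chr19:34583358-34583397, plus strand: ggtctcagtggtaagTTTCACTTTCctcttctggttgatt
Ifit3b, chr19:34607754-34607793, plus strand: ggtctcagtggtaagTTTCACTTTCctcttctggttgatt
Ifit1bl1, chr19:34599426-34599465, minus strand: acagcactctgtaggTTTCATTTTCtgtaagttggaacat
Oas1a, chr5:120907515-120907560, minus strand: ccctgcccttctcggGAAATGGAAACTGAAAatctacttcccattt
Oas3, chr5:120777710-120777749, minus strand: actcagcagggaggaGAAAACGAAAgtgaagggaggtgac
Stat2, chr10:128270261-128270300, plus strand: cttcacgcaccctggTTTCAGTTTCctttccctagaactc
Isg15, chr4:156200860-156200911, minus strand: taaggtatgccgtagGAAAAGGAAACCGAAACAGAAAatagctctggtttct

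The 4 GBP matches have the TTTC form on the gene's strand and the 3 IRG matches the GAAA form. The stretches of Ifit3 and Ifit3b were identical, and those of Igtp and Irgm2 differed at 2 of 40 bases. The match lay between the bases -165 and -30 of the 4 GBP genes, and between -64 and -15 of the 3 IRG genes, counted from the start of the gene. RefSeq windows were not analysed here for Ifi27, Mx1, Mx2, Oas2, Parp9, Parp14, Dhx58, Iigp1, Rtp4 and Usp18.

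Total counts ran from 17407217 to 22965802 per library. No 2 libraries of a group agreed within sampling noise. The chi-square per degree of freedom over genes was 2.1 to 2.8 between HSS libraries, 68 to 419 between Vortex libraries and 6.49 to 68 between PSS libraries. Nothing says that the libraries of a group came from separate cultures, and the labels describe the RNA as mixed, so p-values measure the spread between these libraries, which may be technical. The 12 endothelial markers summed to 621 to 647 CPM, read counts scaled to a library of 1000000, in HSS libraries, to 898, 7687 and 1437 CPM in Vortex replicates 1, 2 and 3, and to 2628 to 3356 CPM in PSS libraries. In HSS libraries Cldn5, a tight-junction gene, was at 0 to 0.0942 CPM. Pecam1, a junction gene that defines endothelium, was at 1456 CPM in Vortex replicate 2 and at 1.08 to 55.1 CPM in the other 8 libraries. Counts of Vortex replicate 2 also followed the GC content of genes. Binned by GC content into 8 sets, its median log2 difference from PSS was -1.41 in the set lowest in GC and 0.898 in the set highest in GC. Results are therefore also given without that library.

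Every one of the 45 genes was higher in all 3 HSS libraries than in any PSS library. Groups separated in this way for 29.9% of all tested genes. Because the 45 were chosen with earlier results of these data known, their contrasts with all genes are descriptive. The median log2 fold change of the 45, HSS over PSS, was 1.57, against -0.005 over all tested genes, and the 45 values ran from 0.41 for Ifi27, a mitochondrial protein gene, to 4.63 for Oas3. In edgeR's quasi-likelihood test over all 9 libraries, adjusted by Benjamini-Hochberg across the 15774 genes tested, 20 of the 45 rose in HSS (44.4%) and 0 fell. Among all tested genes 4.18% rose and 3.7% fell. At an unadjusted p under 0.05 the numbers were 37 higher and 0 lower, where 3693 of the 15774 genes passed in either direction. The DESeq2 Wald test called 35 higher and 0 lower, beside 7.95% and 7.7% of all genes. In these bulk libraries, more RNA of a gene in each cell and more cells that express it cannot be told apart.

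How many of the 45 passed the test in HSS against PSS depended on the libraries in the fit, while the direction did not. Without Vortex replicate 2, a library of neither group that enters through the shared spread, 41 rose, and so did 15.4% of all genes tested in that fit. With the 6 libraries of both groups alone, 43 rose, beside 20.4% of all genes. Without HSS replicate 1, 2 or 3 the number was 3, 2 or 1, without PSS replicate 1, 2 or 3 it was 1, 2 or 2, and without Vortex replicate 1 or 3 it was 25 or 22. The share of all genes that rose moved too, with 0.796% to 1.31% when 1 HSS or PSS library was left out, 5.88% without Vortex replicate 1 and 3.54% without Vortex replicate 3. Dhx58, an RNA sensor, was the 1 gene that passed without each of the 9 libraries in turn. The calls of the other 19 were each lost without 3 or more single libraries, always with HSS replicate 3 and PSS replicate 1 among them.

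The Vortex libraries did not share 1 state of these genes. Vortex replicate 1 had 23 of the 45 above the range of the PSS libraries and 16 below it. Vortex replicate 2 had 10 above and 30 below, and Vortex replicate 3 had 34 above and 5 below. Among all tested genes the share above the PSS range was 39.8%, 42% and 35.7% in the same 3 libraries. The share below it was 38.3%, 40.5% and 36.2%. The 16 genes below it in Vortex replicate 1 were 35.6% of the 45, near the share of all tested genes. Each HSS library had 45 of 45 above the PSS range, beside 36.2% to 36.4% of all tested genes. Of the 45 genes, 25 had their lowest value of all 9 libraries in Vortex replicate 2, and 12 lay above the PSS range in Vortex replicates 1 and 3 and below it in replicate 2. Neither count was taken over all tested genes, so neither is shown to be particular to the 45. The coefficient of variation over 3 libraries, taken on CPM, had a median over the 45 genes of 60.9% in Vortex, 3.48% in HSS and 18.4% in PSS. Its median over all tested genes was not computed. The chi-square per degree of freedom over all genes also was largest in Vortex (68 to 419) and smallest in HSS (2.1 to 2.8), with 6.49 to 68 in PSS.

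In Vortex against PSS 5 of the 45 rose (11.1%), where 8.33% of all tested genes did, and 1 fell (2.22%), where 5.03% did. Neither share stands far from its background. The genes that rose were Oas3, Gbp5, Dhx58, Bst2 and Trim25, and the gene that fell was Samd9l. The median log2 fold change of the 45 was 0.22, against 0.11 over all tested genes. Ranges did not overlap for 7 genes above PSS and 5 below it, against 15.6% and 14.4% of all tested genes. Without Vortex replicate 2, 22 rose and 1 fell, where 19.7% of all genes rose and 16.6% fell. The number that rose was 0, 0 or 2 without PSS replicate 1, 2 or 3, 3 without HSS replicate 1, 2 or 3, and 4 or 1 without Vortex replicate 1 or 3. The number that fell was 7 without Vortex replicate 3 and 1 without any other single library. With the 6 libraries of both groups alone 0 rose and 0 fell, beside 0.264% and 0.224% of all genes. With 1 library other than Vortex replicate 2 left out, 1.81% to 9.27% of all genes rose and 1.37% to 8.03% fell.

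In Vortex against HSS 12 of the 45 fell (26.7%), where 2.67% of all tested genes did, and 0 rose, where 4.37% did. At an unadjusted p under 0.05 the numbers were 29 lower and 0 higher, where 4236 of the 15774 genes passed in either direction. The DESeq2 Wald test called 24 lower and 0 higher, beside 6.33% and 10.9% of all genes. The median log2 fold change, Vortex over HSS, was -1.40, against 0.10 over all tested genes. In 34 of the 45 genes every Vortex library lay below every HSS library, against 16.9% of all tested genes, and in the other 11 the ranges overlapped. The genes that fell were Igtp, Irgm1, Irgm2, Iigp1, Ifit3b, Ifit1bl1, Mx2, Cmpk2, Adar, Samd9l, Parp9 and Parp14. Without Vortex replicate 2, 29 fell, where 10.0% of all genes did. The number was 1 without HSS replicate 1, 2 or 3, 4, 5 or 8 without PSS replicate 1, 2 or 3, and 11 or 16 without Vortex replicate 1 or 3. With the 6 libraries of both groups alone 1 fell, beside 0.126% of all genes. The share of all genes that fell was 0.0555% to 0.0611% without HSS replicate 1, 2 or 3, 0.833% to 2.32% without PSS replicate 1, 2 or 3, and 6.21% or 2.34% without Vortex replicate 1 or 3. This comparison shares the HSS libraries with HSS against PSS.

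Scaling by library totals in place of TMM shifted the median log2 fold change of all tested genes in Vortex against PSS to -0.059. It turned the split of all calls there to 835 higher and 1165 lower, against 1314 and 793 with TMM. For Vortex against HSS the same change gave 458 higher and 542 lower, against 690 and 421. With library totals the median of the 45 genes was 0.06 in Vortex against PSS, -1.52 in Vortex against HSS and 1.54 in HSS against PSS.

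**Figure D1:**
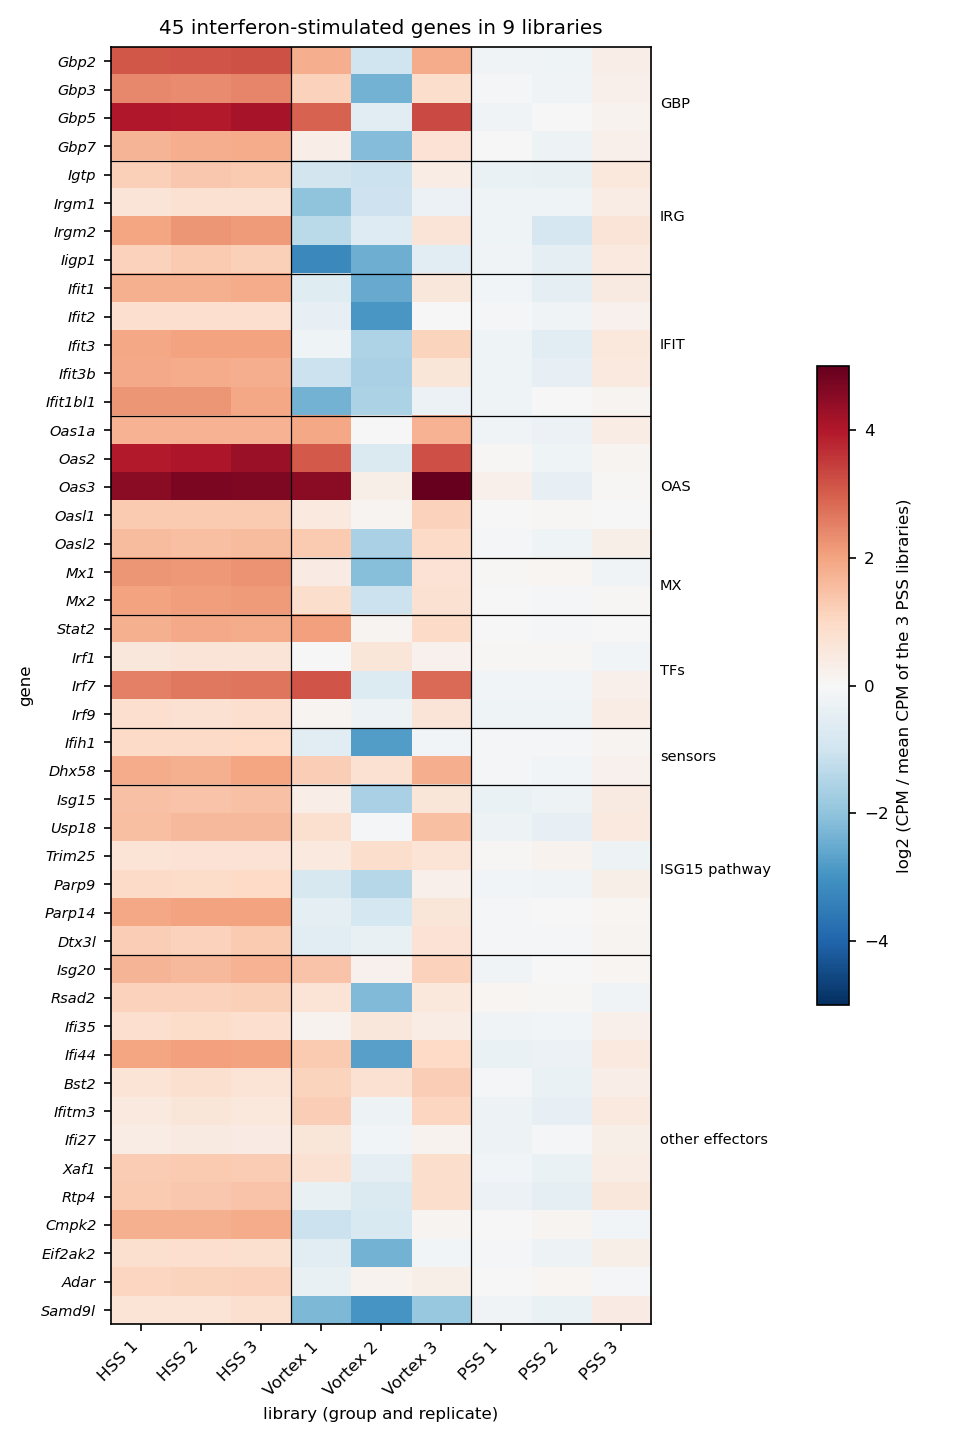
Level of each of the 45 genes (rows, by family or role, TFs being transcription factors) in each of the 9 libraries (columns), as the log2 ratio of CPM to the mean CPM of the 3 PSS libraries. All 45 genes are above 0 in the 3 HSS libraries, while Vortex replicate 2 has 30 of them below the PSS range and Vortex replicate 3 has 34 above it. Of all tested genes, 40.5% lie below that range in Vortex replicate 2 and 35.7% above it in Vortex replicate 3.

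The genes upstream of the response were read from lists of the pathway. Of 21 interferon genes looked for, 8 are in the table and 0 passed the filter. Together they had 99 counts over the 9 libraries. Ifnb1, interferon beta, had 2, 5 and 4 counts in HSS libraries, 10, 1 and 9 counts in Vortex libraries and 2, 2 and 2 counts in PSS libraries. Counts this low show no order between HSS and PSS, and the Vortex libraries lay on both sides of the PSS value. Ifne, a type I interferon of epithelia named after its counts were seen, had 29 of its 35 counts in Vortex replicate 2. Ifng, the type II interferon, was not analysed here.

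The receptor chains were expressed in every library. Ifnar2 had 20.3, 24 and 20.8 CPM in the HSS libraries, 20.5, 18.5 and 25.4 CPM in the Vortex libraries and 5.61, 5.4 and 6.39 CPM in the PSS libraries. Both HSS and Vortex libraries lay above all PSS libraries, with no overlap. It rose by 1.90 ± 0.21 (log2 ± SE, edgeR adjusted p = 0.00195) in HSS against PSS and by 1.89 ± 0.21 (adjusted p = 0.00242) in Vortex against PSS. Ifnar1 had 97.6, 107 and 105 CPM in the HSS libraries, 187, 249 and 184 CPM in the Vortex libraries and 90.3, 90.8 and 84.9 CPM in the PSS libraries. The Vortex libraries were the highest, with 1.22 ± 0.18 against PSS (edgeR adjusted p = 0.005), and HSS against PSS gave 0.22 ± 0.17 (adjusted p = 0.513). Ifngr2 rose by 1.03 ± 0.17 in HSS (edgeR adjusted p = 0.00806) and by 1.67 ± 0.17 in Vortex (adjusted p = 0.0022), both against PSS. Ifngr1, which binds type II interferon, gave 0.10 ± 0.21 (adjusted p = 0.84) and 0.12 ± 0.21 (adjusted p = 0.752) in the same comparisons. Of the 6 receptor genes tested, 2 rose in HSS against PSS and 3 in Vortex against PSS, and 0 fell in either. Of all tested genes 4.18% and 8.33% rose in these comparisons. Without Vortex replicate 2 the numbers were 2 and 4, beside 15.4% and 19.7% of all genes. Counts of this list with other single libraries left out are not given.

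Jak2, a kinase of the type II receptor that is named here after its values were seen, had 28.5 CPM in Vortex replicate 2 and 363 to 467 CPM in the other Vortex libraries, against 271 to 281 CPM in HSS and 120 to 151 CPM in PSS libraries. Tyk2, a kinase of the type I receptor, rose by 1.12 ± 0.23 in Vortex against PSS (edgeR adjusted p = 0.0157).

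**Figure D2:**
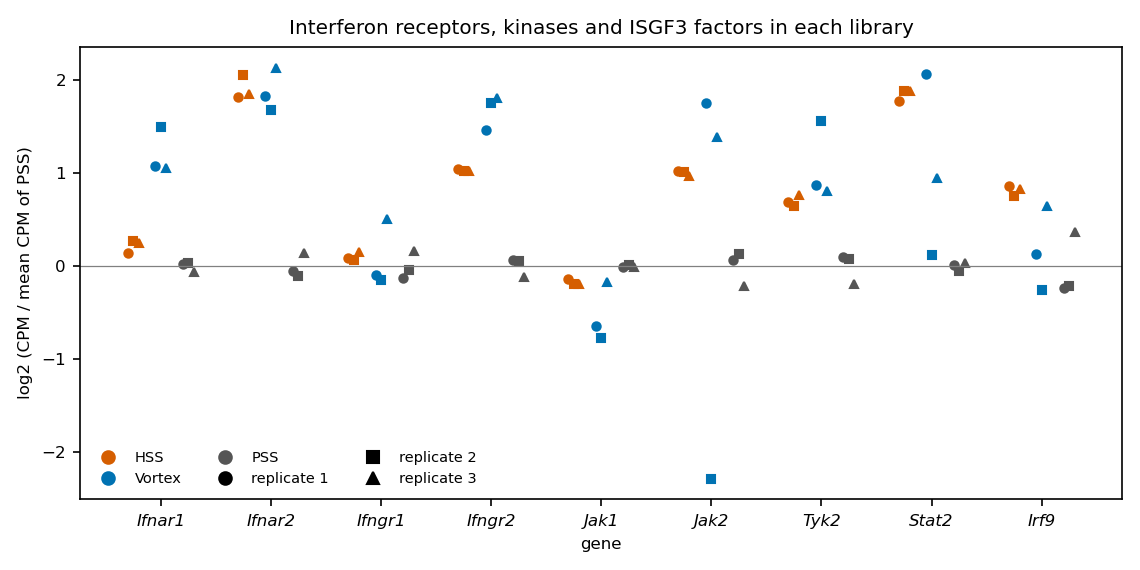
Log2 ratio of CPM to the mean CPM of the 3 PSS libraries (y axis) for 4 receptor genes, 3 kinases, Stat2 and Irf9 (x axis), 1 point for each library, with colour for the group and shape for the replicate. Ifnar2 is above PSS in all HSS and Vortex libraries, and Jak2 of Vortex replicate 2 lies far below the other points.

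Of the transcription factors among the 45, Stat2 and Irf7 had the largest differences. Stat2, a subunit of ISGF3, was at 39.3, 42.5 and 42.3 CPM in the HSS libraries, 48.3, 12.6 and 22.2 CPM in the Vortex libraries and 11.7, 11.1 and 11.8 CPM in the PSS libraries. Both groups lay above the PSS libraries without overlap, and the Vortex libraries were spread widely. It rose in HSS against PSS by 1.84 ± 0.41 (log2 ± SE, edgeR adjusted p = 0.0298), and Vortex against PSS gave 1.26 ± 0.41 (adjusted p = 0.0723). Irf7, which amplifies type I interferon production, was at 80.4, 86.4 and 89.4 CPM in the HSS libraries, 123.3, 8.58 and 99.4 CPM in the Vortex libraries and 12.7, 12.6 and 16.3 CPM in the PSS libraries. Vortex replicates 1 and 3 stood above every HSS library and replicate 2 below every PSS library. With all libraries the log2 fold change was 2.62 ± 0.73 in HSS (edgeR adjusted p = 0.0621) and 2.47 ± 0.72 in Vortex (adjusted p = 0.0535) against PSS. Without Vortex replicate 2 it was 2.62 and 3.00, and both passed the test. Irf1, a factor that interferon of either type induces, was at 32, 33.6 and 33.2 CPM in the HSS libraries, 21.1, 32.4 and 25.2 CPM in the Vortex libraries and 22.5, 22.3 and 19.7 CPM in the PSS libraries. The HSS libraries lay above PSS, by 0.62 ± 0.20 on the log2 scale (edgeR adjusted p = 0.0967), and here Vortex replicate 2 was the highest of its group. Irf9, the DNA-binding subunit of ISGF3, gave 0.81 ± 0.26 in HSS against PSS (adjusted p = 0.0971) and 0.22 ± 0.26 in Vortex against PSS (adjusted p = 0.623).

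The 4 GBP genes were high in HSS and in 2 of the 3 Vortex libraries. Gbp2 was at 98.2, 100.5 and 104 CPM in the HSS libraries, 40.0, 5.76 and 41.2 CPM in the Vortex libraries and 10.1, 9.93 and 14.2 CPM in the PSS libraries. Gbp3 was at 187, 183 and 193 CPM in the HSS libraries, 77.4, 6.91 and 65.2 CPM in the Vortex libraries and 32.9, 30.9 and 41.9 CPM in the PSS libraries. In both genes Vortex replicates 1 and 3 stood between HSS and PSS, and Vortex replicate 2 lay below all PSS libraries. Gbp5, which also promotes inflammasome activity, was at 54, 52.8 and 57.8 CPM in the HSS libraries, 26, 2.24 and 32.8 CPM in the Vortex libraries and 2.93, 3.31 and 3.79 CPM in the PSS libraries. Gbp7 was at 67.6, 71.6 and 75.1 CPM in the HSS libraries, 26, 4.57 and 34.1 CPM in the Vortex libraries and 20.2, 17.3 and 24.4 CPM in the PSS libraries. The order of the libraries was the same as for Gbp2, with HSS on top and Vortex replicate 2 at the bottom.

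In HSS against PSS the GBP genes had a median log2 fold change of 2.78, and 2 of 4 passed the test. Gbp5 rose by 4.03 ± 0.77 (log2 ± SE, edgeR adjusted p = 0.0161) and Gbp2 by 3.14 ± 0.61 (adjusted p = 0.0164). Gbp3 gave 2.41 ± 0.67 (adjusted p = 0.0613) and Gbp7 1.79 ± 0.56 (adjusted p = 0.089). The median in Vortex against PSS was 0.92, and Gbp5 alone of the 4 passed, with 2.6 ± 0.73 (edgeR adjusted p = 0.0467). Its adjusted p ran from 1.81e-06 to 0.243 over the 21 alternatives tried. Without Vortex replicate 2, 4 of 4 rose in HSS and 4 of 4 in Vortex against PSS, with 1.83 for Gbp2, 1.01 for Gbp3, 3.13 for Gbp5 and 0.54 for Gbp7 in Vortex. The median in Vortex against HSS was -1.76, with 0 of 4 past edgeR's test with all 9 libraries, 3 lower at an unadjusted p under 0.05, 3 lower in the DESeq2 Wald test and 4 of 4 lower without Vortex replicate 2. With any 1 HSS or PSS library left out 0 of 4 passed in HSS against PSS, and Gbp5 lost its call in Vortex against PSS with any 1 library other than Vortex replicate 2 left out. Gbp7, close to 0 in Vortex against PSS, had a value of -0.09 there with library totals in place of TMM. Fits that kept TMM also gave negative values, with -0.38 for Gbp7 and -0.12 for Gbp3 in limma-voom.

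The 4 IRG genes were high in HSS and in no Vortex library. Igtp (Irgm3) was at 24.3, 27.6 and 26.3 CPM in the HSS libraries, 5.61, 5.1 and 13.9 CPM in the Vortex libraries and 8.44, 8.37 and 15.4 CPM in the PSS libraries. Irgm1, which controls the other IRG proteins on membranes, was at 86.2, 93.7 and 95 CPM in the HSS libraries, 13.9, 26.9 and 45 CPM in the Vortex libraries and 47.6, 48.6 and 71.4 CPM in the PSS libraries. Vortex replicate 1 had the lowest value of the Vortex group for Irgm1, and all 3 Vortex libraries lay below PSS there. Irgm2 was at 40.0, 47.6 and 45.4 CPM in the HSS libraries, 3.97, 6.53 and 16.1 CPM in the Vortex libraries and 8.74, 5.79 and 16.2 CPM in the PSS libraries. Iigp1 (Irga6), an effector of the family, was at 29, 31.7 and 29.8 CPM in the HSS libraries, 1.39, 2.38 and 9.08 CPM in the Vortex libraries and 11.6, 9.2 and 18 CPM in the PSS libraries. For Iigp1 each Vortex library lay below every PSS library, and Vortex replicate 1 was the lowest.

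The median log2 fold change of the IRG genes was 1.25 in HSS against PSS, and Irgm2 passed the test with 2.11 ± 0.53 (log2 ± SE, edgeR adjusted p = 0.0422). The other 3 gave 1.28 ± 0.41 for Igtp (adjusted p = 0.096), 1.22 ± 0.58 for Iigp1 (adjusted p = 0.245) and 0.71 ± 0.37 for Irgm1 (adjusted p = 0.291). Irgm2 lost that call with any 1 HSS or PSS library left out. In Vortex against PSS all 4 had negative values, with a median of -0.68, and 0 passed in edgeR. Iigp1 was the lowest, at -1.59 ± 0.59 (adjusted p = 0.109). At an unadjusted p under 0.05, Irgm1 and Iigp1 were lower and 0 of the 4 were higher, and the DESeq2 Wald test called Iigp1 lower. In Vortex against HSS 4 of 4 fell, with a median of -2.0. Iigp1 fell by 2.81 ± 0.61 (edgeR adjusted p = 0.0317) and Irgm2 fell by 2.32 ± 0.53 (adjusted p = 0.0357). These 4 calls also held without Vortex replicate 2, with -2.49 for Iigp1, -2.12 for Irgm2, -1.63 for Irgm1 and -1.41 for Igtp. Without HSS replicate 1, 2 or 3, or PSS replicate 1 or 2, 0 of the 4 passed, and without PSS replicate 3 or Vortex replicate 1, 3 passed. The adjusted p of Iigp1 ran from 7.55e-05 to 0.123 over the 21 alternatives.

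**Figure D3:**
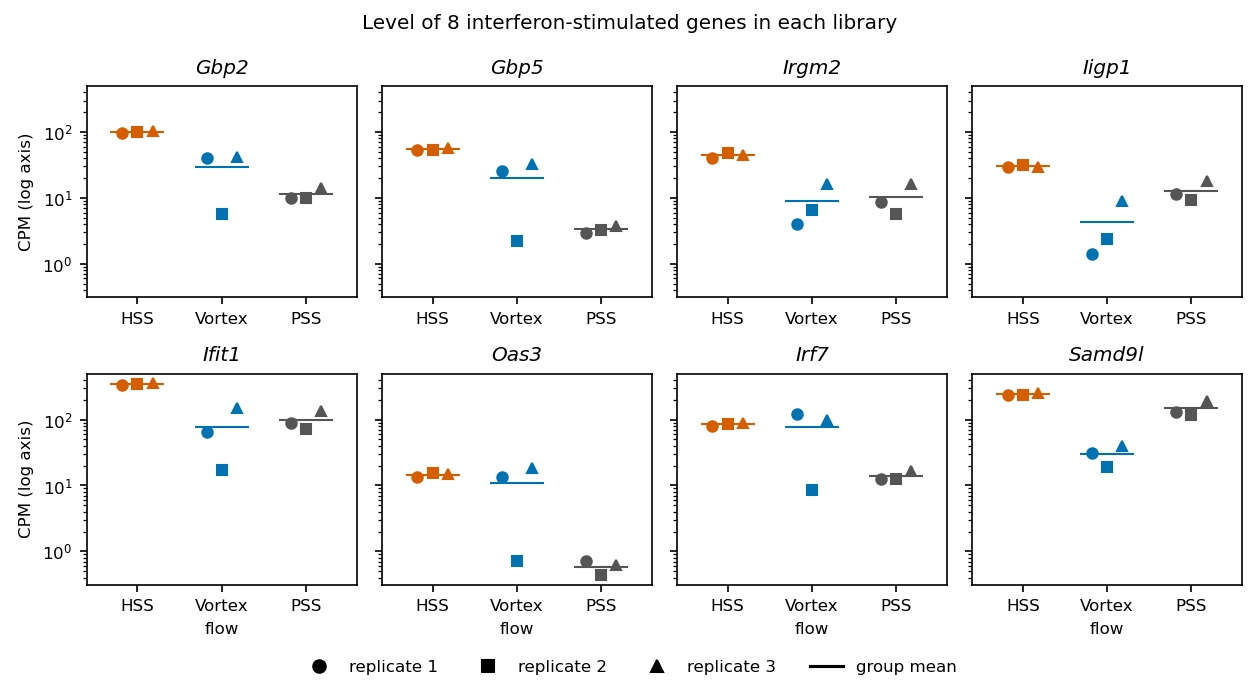
CPM (log axis) of 8 of the genes in each library, with HSS, Vortex and PSS from left to right, shape for the replicate and a line at the mean of the 3 libraries. Vortex replicates 1 and 3 lie above PSS for Gbp2, Gbp5, Oas3 and Irf7, no Vortex library of Iigp1 or Samd9l does, and Vortex replicate 2 (square) is the lowest of its group in 6 of the 8 panels.

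The 5 IFIT genes, set beside these, were high in HSS and near or below PSS in most Vortex libraries. Ifit1 was at 339.6, 341 and 357 CPM in the HSS libraries, 65.6, 17.2 and 148 CPM in the Vortex libraries and 89.5, 72.8 and 136 CPM in the PSS libraries. Ifit2 was at 100.2, 101 and 103 CPM in the HSS libraries, 42.4, 7.62 and 57.6 CPM in the Vortex libraries and 54.2, 50.6 and 65.4 CPM in the PSS libraries. Vortex replicate 2 was the lowest of all 9 libraries in both genes, and replicate 3 of Vortex stood above the PSS range for Ifit1 and inside it for Ifit2. Ifit3, which stabilises its partner Ifit1, was at 71.7, 76.4 and 76 CPM in the HSS libraries, 16.4, 6.57 and 41.5 CPM in the Vortex libraries and 16.4, 13.1 and 27.6 CPM in the PSS libraries. Ifit3b, a near copy of Ifit3, was at 30.0, 29 and 28.4 CPM in the HSS libraries, 3.85, 2.62 and 12.2 CPM in the Vortex libraries and 6.97, 6.08 and 11.2 CPM in the PSS libraries. The 2 genes ran in parallel, and they share sequence: 51.2% of the stretches of 50 bases of Ifit3 and 45% of those of Ifit3b occur in the other, so that reads may have been split between them. Ifit1bl1 was at 5.99, 6 and 4.94 CPM in the HSS libraries, 0.252, 0.429 and 1.04 CPM in the Vortex libraries and 1.11, 1.31 and 1.42 CPM in the PSS libraries, with every Vortex library below every PSS library.

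In HSS against PSS the IFIT genes had a median log2 fold change of 1.85, and 1 of 5 passed, Ifit1bl1 with 2.13 ± 0.44 (log2 ± SE, edgeR adjusted p = 0.0218). Ifit1 gave 1.80 ± 0.61 (adjusted p = 0.11) and Ifit3 1.97 ± 0.57 (adjusted p = 0.07). Once Vortex replicate 2 was left out, 5 of 5 rose, and with any 1 HSS or PSS library left out 0 did. The median in Vortex against PSS was -0.37 and 0 passed in edgeR. At an unadjusted p under 0.05 there were 0 higher and 1 lower, and the DESeq2 Wald test called 0. Without Vortex replicate 3, Ifit3b and Ifit1bl1 were lower in that comparison. The median in Vortex against HSS was -2.17, and Ifit1bl1 fell by 3.27 ± 0.48 (edgeR adjusted p = 0.0107) and Ifit3b fell by 2.22 ± 0.53 (adjusted p = 0.039). There 5 of 5 fell without Vortex replicate 2, 4 without Vortex replicate 3, 1 without Vortex replicate 1 or with any 1 PSS library left out, and 0 with any 1 HSS library left out.

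The 5 OAS genes were high in HSS and in Vortex replicates 1 and 3. Oas3, of the family whose oligoadenylates activate RNase L, was at 13.5, 15.3 and 15 CPM in the HSS libraries, 13.4, 0.715 and 18.4 CPM in the Vortex libraries and 0.707, 0.438 and 0.616 CPM in the PSS libraries. Oas2 was at 18.5, 19.5 and 23.5 CPM in the HSS libraries, 9.71, 0.715 and 10.9 CPM in the Vortex libraries and 1.21, 1.02 and 1.28 CPM in the PSS libraries. In both, Vortex replicates 1 and 3 lay many times above the PSS libraries, and Vortex replicate 2 lay at the PSS level for Oas3, where it equalled the highest PSS library closely, and below it for Oas2. Oas1a was at 71.8, 72.1 and 72 CPM in the HSS libraries, 82.2, 21.4 and 71.5 CPM in the Vortex libraries and 19.2, 17.7 and 28 CPM in the PSS libraries. Vortex replicates 1 and 3 were as high as the HSS libraries here. Oas1a shares 57.6% of its stretches of 50 bases with other genes, Oas1g first, so its counts may hold or miss reads of those.

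Oasl1, which in mouse limits translation of Irf7, was at 154, 153 and 153 CPM in the HSS libraries, 86.5, 68.2 and 139 CPM in the Vortex libraries and 61, 63.8 and 61.2 CPM in the PSS libraries. All HSS libraries were above all Vortex libraries, and all Vortex libraries above all PSS libraries. Oasl2 was at 229, 218 and 229.8 CPM in the HSS libraries, 189.6, 24.9 and 149 CPM in the Vortex libraries and 70.6, 65.9 and 92.4 CPM in the PSS libraries. Its Vortex replicate 2 was the lowest of all libraries. In HSS against PSS 4 of 5 rose, with 4.63 ± 0.94 for Oas3 (log2 ± SE, edgeR adjusted p = 0.0203), 4.12 ± 0.80 for Oas2 (adjusted p = 0.0164), 1.73 ± 0.43 for Oas1a (adjusted p = 0.0429) and 1.30 ± 0.25 for Oasl1 (adjusted p = 0.0161). Oasl2 gave 1.57 ± 0.57 (adjusted p = 0.133). In Vortex against PSS Oas3 rose by 4.19 ± 0.93 (edgeR adjusted p = 0.0203), with an adjusted p from 1.43e-06 to 0.184 over the 21 alternatives, and Oas1a gave 1.43 ± 0.43 (adjusted p = 0.0573). Without Vortex replicate 2, 5 of 5 rose in HSS and 5 of 5 in Vortex against PSS. With any 1 HSS or PSS library left out 0 of 5 passed in HSS against PSS, and in Vortex against PSS Oas3 lost its call without PSS replicate 1, 2 or 3 or Vortex replicate 3. The median in Vortex against HSS was -0.65, with 0 of 5 past edgeR's test, 0 higher and 1 lower at an unadjusted p under 0.05, and 0 in the DESeq2 Wald test. With Vortex replicate 2 left out that median was -0.42, with 2 values above 0 and 3 below it, and Oas2 fell by 0.99 (edgeR adjusted p = 0.00557).

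Mx1 was at 21.2, 21 and 21.7 CPM in the HSS libraries, 6.18, 1.05 and 7.55 CPM in the Vortex libraries and 4.8, 4.96 and 4.07 CPM in the PSS libraries. Mx2 was at 45.9, 48.6 and 50.1 CPM in the HSS libraries, 21.4, 5.48 and 19.3 CPM in the Vortex libraries and 11.4, 11.2 and 12 CPM in the PSS libraries. In both, Vortex replicates 1 and 3 lay above PSS and below HSS, and replicate 2 was the lowest library. In HSS against PSS Mx1 rose by 2.20 ± 0.56 (log2 ± SE, edgeR adjusted p = 0.0439) and Mx2 by 2.06 ± 0.42 (adjusted p = 0.0206), and both calls were lost with any 1 HSS or PSS library left out. Vortex against PSS gave 0.09 ± 0.54 for Mx1 and 0.42 ± 0.41 for Mx2, with 0 of 2 past edgeR's test, 0 at an unadjusted p under 0.05 and 0 in the DESeq2 Wald test. With library totals the value of Mx1 was -0.07. Both rose without Vortex replicate 2, by 0.58 and 0.82. In Vortex against HSS Mx2 fell by 1.65 ± 0.42 (edgeR adjusted p = 0.0479), a call lost with any 1 HSS or PSS library or Vortex replicate 3 left out, and Mx1 gave -2.11 ± 0.55 (adjusted p = 0.0522). Against HSS both fell without Vortex replicate 2, with log2 fold changes of -1.63 for Mx1 (edgeR adjusted p = 0.000475) and -1.24 for Mx2 (adjusted p = 0.000461).

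Side by side, the families had like positions in HSS and unlike ones in Vortex. In each HSS library 8 of 8 GBP and IRG genes and 12 of 12 IFIT, OAS and MX genes lay above the PSS range. In Vortex replicate 1, 4 of 4 GBP, 5 of 5 OAS and 2 of 2 MX genes lay above it, while 4 of 4 IRG and 4 of 5 IFIT genes lay below it. In Vortex replicate 3, 4 of 4 GBP, 5 of 5 OAS, 2 of 2 MX and 3 of 5 IFIT genes lay above the PSS range, with 0 of 4 IRG genes above it and 2 below. In Vortex replicate 2, 4 of 4 GBP, 5 of 5 IFIT, 2 of 2 MX and 3 of 4 IRG genes lay below the range, while of the OAS genes 2 lay above it and 2 below. In Vortex replicate 1 GBP and IRG genes thus lay on opposite sides of PSS, as did OAS and MX genes against most IFIT genes. In Vortex replicate 3 IRG genes were the 1 family with none above PSS, and in Vortex replicate 2 most genes of every family other than OAS lay below it. No test of these differences between families was made.

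The same is seen in the family medians, as log2 of CPM over the PSS mean. GBP genes stood at 1.47, -1.58 and 1.37 in Vortex replicates 1, 2 and 3, and at 2.76, 2.76 and 2.82 in HSS. IRG genes stood at -1.69, -1.06 and 0.03 in Vortex replicates 1, 2 and 3, and at 1.17, 1.33 and 1.25 in HSS. IFIT genes stood at -0.60, -1.62 and 0.57 in Vortex, and at 1.89, 1.84 and 1.85 in HSS. OAS genes stood at 1.93, -0.02 and 1.72 in Vortex, and at 1.73, 1.74 and 1.73 in HSS. MX genes stood at 0.66, -1.61 and 0.73 in Vortex, and at 2.10, 2.13 and 2.18 in HSS. The HSS medians of a family differed by at most a small part of what separated its Vortex medians.

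**Figure D4:**
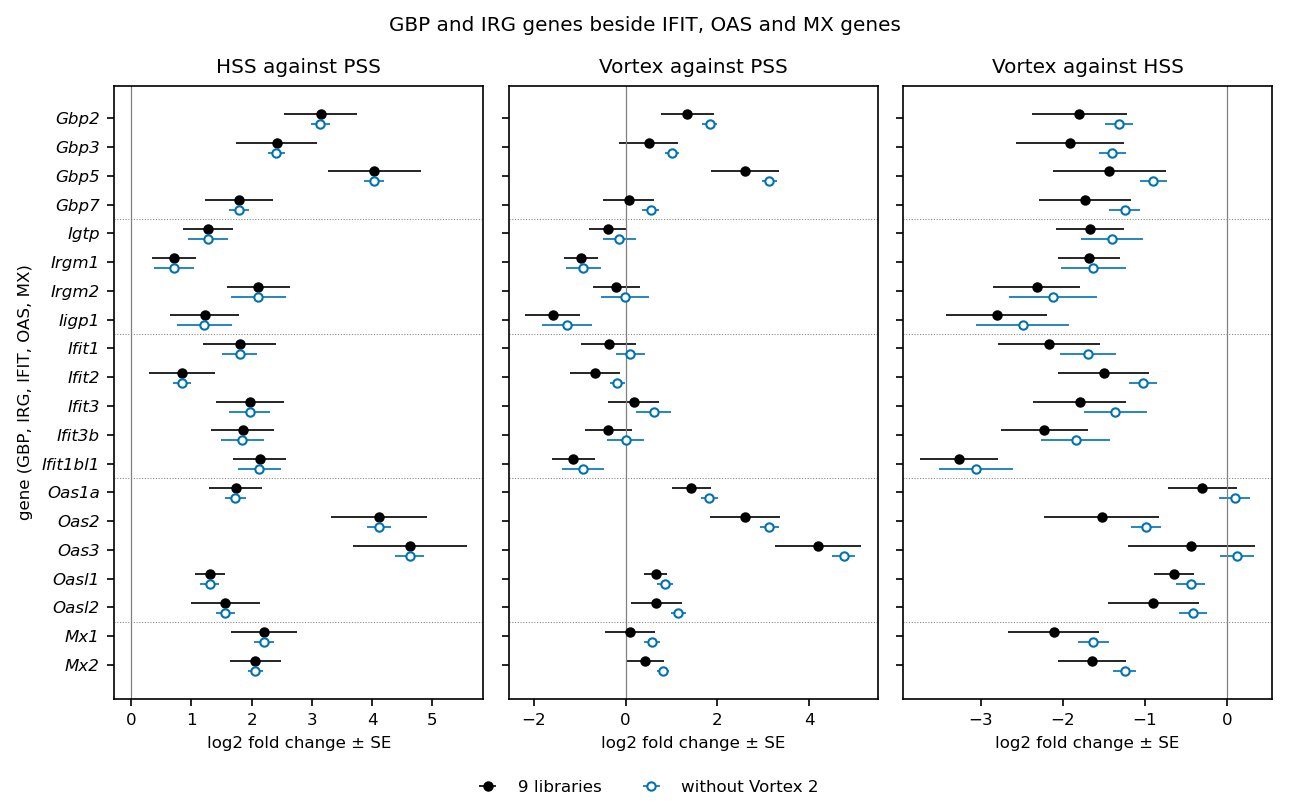
Log2 fold change ± SE from edgeR (x axes, which differ in range) of the 20 GBP, IRG, IFIT, OAS and MX genes (y axis) in HSS against PSS, Vortex against PSS and Vortex against HSS, with all 9 libraries (filled) and without Vortex replicate 2 (open). All 20 values lie above 0 in HSS against PSS, and in Vortex against PSS the 4 IRG values lie below 0 and the 4 GBP values above it. In other fits of all 9 libraries Gbp7 is at -0.09 with library totals, -0.14 with the replicate block and -0.38 with voom. Gbp3 is at -0.12 with voom.

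Both RNA sensors among the 45 were high in HSS and went apart in Vortex. Dhx58 (LGP2), a helicase that tunes the response to viral RNA, was at 45.4, 43.4 and 48.9 CPM in the HSS libraries, 29.1, 21.2 and 44.4 CPM in the Vortex libraries and 11.7, 11.5 and 14.4 CPM in the PSS libraries. The HSS libraries and the Vortex libraries lay above all PSS libraries. It rose in HSS against PSS by 1.87 ± 0.27 (log2 ± SE, edgeR adjusted p = 0.00544, 4.94e-08 to 0.0417 over the 21 alternatives) and in Vortex against PSS by 1.33 ± 0.27 (adjusted p = 0.0139, lost without PSS replicate 1 or 2, with 0.000232 to 0.0905 over the 21 alternatives). Ifih1 (MDA5), which detects long double-stranded RNA, was at 156, 156 and 161 CPM in the HSS libraries, 55.9, 11.6 and 72.3 CPM in the Vortex libraries and 78.4, 75.1 and 88.3 CPM in the PSS libraries. All Vortex libraries lay below all PSS libraries, and Vortex replicate 2 stood lowest. Its log2 fold change was 0.97 ± 0.51 in HSS (edgeR adjusted p = 0.293) and -0.79 ± 0.51 in Vortex (adjusted p = 0.335) against PSS.

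Genes of ISG15 and of ubiquitin-like modification made up 6 of the 45. Isg15, the ubiquitin-like protein itself, was at 102, 99.1 and 103 CPM in the HSS libraries, 46, 12.1 and 57 CPM in the Vortex libraries and 29.6, 31.1 and 50.4 CPM in the PSS libraries. Usp18, which removes it and dampens the type I receptor, was at 148, 162 and 162 CPM in the HSS libraries, 90.0, 50.3 and 148 CPM in the Vortex libraries and 44.2, 39.6 and 72.4 CPM in the PSS libraries. In both, the HSS libraries stood together above PSS, and Vortex replicate 2 was the lowest of its group. Parp14, an ADP-ribosyltransferase, was at 151, 159.8 and 159 CPM in the HSS libraries, 28.6, 21.4 and 60.1 CPM in the Vortex libraries and 36.6, 39.3 and 42.2 CPM in the PSS libraries. Trim25, a ubiquitin ligase of RNA sensing, was at 326, 339 and 341 CPM in the HSS libraries, 287, 382 and 332 CPM in the Vortex libraries and 214, 229.6 and 173 CPM in the PSS libraries, and it is 1 of the genes in which Vortex replicate 2 was the highest of its group.

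In HSS against PSS 4 of these 6 rose: Parp14 by 1.99 ± 0.34 (log2 ± SE, edgeR adjusted p = 0.0107), Usp18 by 1.60 ± 0.38 (adjusted p = 0.0365), Dtx3l by 1.23 ± 0.31 (adjusted p = 0.0465) and Trim25 by 0.71 ± 0.18 (adjusted p = 0.0427). Isg15 gave 1.45 ± 0.48 (adjusted p = 0.102) and passed without Vortex replicate 2, where its value was 1.45. Trim25 also rose in Vortex against PSS, by 0.70 ± 0.18 (edgeR adjusted p = 0.0327, 0.00301 to 0.161 over the 21 alternatives), a call lost with any 1 library other than Vortex replicate 1 or 2 left out. In Vortex against HSS Parp14 fell by 2.09 ± 0.35 (edgeR adjusted p = 0.014) and Parp9, whose product pairs with that of Dtx3l, fell by 1.46 ± 0.37 (adjusted p = 0.0495). Parp14 lost this call without HSS replicate 1, 2 or 3, and Parp9 with any 1 HSS or PSS library or Vortex replicate 1 left out. Exons of Parp9 and Dtx3l overlap on opposite strands by 458 bases, and the strand setting of the counting could not be read from the sources used here, so their counts may share reads.

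The other 13 genes are effectors of several kinds. Samd9l, which restricts translation and viruses, was at 238, 238 and 255 CPM in the HSS libraries, 31.5, 19.1 and 39.8 CPM in the Vortex libraries and 132, 117 and 194 CPM in the PSS libraries. The HSS libraries were the highest, and every Vortex library lay below every PSS library. It fell in Vortex against PSS by 2.29 ± 0.30 (log2 ± SE, edgeR adjusted p = 0.00403) and in Vortex against HSS by 3.01 ± 0.31 (adjusted p = 0.00326). Both calls held without each of the 9 libraries in turn, and over the 21 alternatives the adjusted p ran from 7.48e-11 to 0.0503 and from 5.38e-18 to 0.036. HSS against PSS gave 0.72 ± 0.29 (adjusted p = 0.165). Of the 45, Samd9l was the 1 gene to fall in Vortex against PSS.

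Cmpk2, a mitochondrial nucleotide kinase, was at 63.7, 63.3 and 66.9 CPM in the HSS libraries, 8.77, 10.7 and 20.4 CPM in the Vortex libraries and 18.5, 20.0 and 16.5 CPM in the PSS libraries. The HSS libraries stood alone, and the Vortex libraries lay around and below PSS. Cmpk2 rose in HSS against PSS by 1.81 ± 0.30 (log2 ± SE, edgeR adjusted p = 0.00914) and fell in Vortex against HSS by 2.28 ± 0.31 (adjusted p = 0.00888), where the call was lost without HSS replicate 1, 2 or 3. Rsad2 (viperin), its neighbour in the genome, is given by library after its values were seen and had 18.4 CPM in Vortex replicate 2 and 137 and 125 CPM in Vortex replicates 1 and 3, against 75.6 to 92.8 CPM in PSS. Isg20, an exonuclease, was at 27.9, 26.4 and 29 CPM in the HSS libraries, 23.3, 9.91 and 19.3 CPM in the Vortex libraries and 7.68, 8.81 and 9.28 CPM in the PSS libraries. It rose in HSS against PSS by 1.69 ± 0.30 (edgeR adjusted p = 0.012), with every Vortex library also above every PSS library and 1.02 ± 0.30 in Vortex against PSS (adjusted p = 0.0511).

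Ifitm3, which blocks viral entry, was at 291, 317 and 301 CPM in the HSS libraries, 484, 173 and 441 CPM in the Vortex libraries and 176, 158 and 289 CPM in the PSS libraries. Vortex replicates 1 and 3 were the highest libraries, and PSS replicate 3 came near the HSS libraries. It gave 0.55 ± 0.37 in HSS (log2 ± SE, edgeR adjusted p = 0.428) and 0.82 ± 0.37 in Vortex (adjusted p = 0.177) against PSS. Bst2 (tetherin), which holds budding virus at the cell surface, rose in Vortex against PSS by 1.06 ± 0.22 (edgeR adjusted p = 0.0148, 0.000285 to 0.137 over the 21 alternatives, lost without PSS replicate 1 or 2 or Vortex replicate 3) and gave 0.73 ± 0.22 in HSS against PSS (adjusted p = 0.0779). Ifitm3 and Bst2 were the 2 of the 45 genes with a positive value in Vortex against HSS, 0.27 ± 0.37 (adjusted p = 0.683) and 0.33 ± 0.22 (adjusted p = 0.36). Adar, an RNA editor, rose in HSS against PSS by 1.11 ± 0.20 (adjusted p = 0.0125) and fell in Vortex against HSS by 1.05 ± 0.20 (adjusted p = 0.0202), the second call being lost without PSS replicate 1 or HSS replicate 1, 2 or 3. Ifi35 rose in HSS against PSS by 0.87 ± 0.20 (adjusted p = 0.0335). Adar and Ifi35 each overlap a gene on the opposite strand over 16.8% of their exon bases. Rsad2, Ifi44, Ifi27, Xaf1, Rtp4 and Eif2ak2 passed edgeR's test in none of the 3 comparisons with all 9 libraries, with 2.01 ± 0.74 for Ifi44 and 1.29 ± 0.34 for Xaf1 in HSS against PSS.

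Compared per length of gene, on the FPKM scale, the members covered a wide range of levels. Mean FPKM over the 9 libraries was 427 for Ifitm3, 185 for Bst2, 84.5 for Isg15, 73.5 for Ifi27 and 66.5 for Ifit1, against 1.13 for Ifit1bl1, 1.22 for Oas3 and 2.16 for Oas2. Ifitm3 had 457 ± 20.0 FPKM in HSS, 504 ± 234 FPKM in Vortex and 319 ± 99.7 FPKM in PSS (SD, n = 3 each). Oas3 had 2.12 ± 0.142 FPKM in HSS, 1.44 ± 1.23 FPKM in Vortex and 0.0869 ± 0.0201 FPKM in PSS (SD, n = 3 each). The gene with the largest fold change was thus among those at the lowest level, and the gene at the highest level had 1 of the smallest fold changes in HSS against PSS.

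Several measures moved with these values. The median GC content of the 45 genes was 49.0%, against 49.4% of all tested genes. In Vortex replicate 2 the 23 members at or below the members' median GC content stood at a median log2 of -1.62 relative to PSS and the 22 above it at -0.03. In Vortex replicate 1 the same sets of genes stood at -0.52 and 1.00, and in Vortex replicate 3 at 0.59 and 1.03. Over all tested genes, the sets lowest and highest in GC stood at -0.134 and 0.178 in Vortex replicate 1. They stood at -0.449 and 0.273 in Vortex replicate 3, and at -1.41 and 0.898 in Vortex replicate 2. With the GC trend of each library removed, 25 of the 45 rose in HSS against PSS, 2 rose and 1 fell in Vortex against PSS, and 16 fell in Vortex against HSS. In that fit 4.59% of all genes rose in HSS against PSS, and 3.28% fell in Vortex against HSS. In Vortex against PSS 6.02% rose and 3.39% fell, and neither count of the 45 stood above that background. PSS replicate 3 was the highest PSS library for 37 of the 45, a count not taken over all tested genes. The 12 endothelial markers were lowest in HSS libraries and highest in Vortex replicate 2, the library in which these genes were mostly lowest. Their part in the result was not tested.

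Of the 12 macrophage and leukocyte markers, 10 are in the table, and they summed to 36.0 to 39.5 CPM in HSS, 30.4 to 81.0 CPM in Vortex and 11.1 to 12.8 CPM in PSS libraries. Of these, 6 were under 1 CPM in every library, among them Ptprc, the common leukocyte antigen, and Adgre1, Itgam, Fcer1g and Aif1. Csf1r, a receptor of macrophages, and Cd14 were among those that were detected. In HSS against PSS 2 of the 4 tested rose and 0 fell, and in Vortex against PSS 3 rose and 0 fell. Their median log2 fold changes were 1.03 and 2.36. Of all tested genes 4.18% rose in HSS and 8.33% in Vortex against PSS. The 5 plasmacytoid dendritic cell markers, of which Bst2 is also among the 45 genes, summed to 220 to 238 CPM in HSS, 297 to 350 CPM in Vortex and 207 to 254 CPM in PSS libraries. Siglech, which defines those cells, was under 1 CPM in every library. Of the 4 tested, 0 rose and 2 fell in HSS against PSS, and 1 rose and 1 fell in Vortex against PSS. The 8 fibroblast and pericyte markers summed to 352 to 369 CPM in HSS libraries, to 657, 61.2 and 591 CPM in Vortex replicates 1, 2 and 3, and to 289 to 363 CPM in PSS libraries. They were thus above PSS in Vortex replicates 1 and 3 and below it in Vortex replicate 2, on the same sides as 12 of the 45 genes. The share of all tested genes on those sides was not counted. Col1a2 and Lum of that list were under 1 CPM in every library. The part of other cells in the result was not tested.

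Other interferon-induced genes of the pathway lists, which were also chosen with earlier results known, are given by their counts, with no test between lists. With all 9 libraries 4.18% of all tested genes rose in HSS against PSS, 8.33% rose and 5.03% fell in Vortex against PSS, and 2.67% fell in Vortex against HSS. With Vortex replicate 2 left out the same shares were 15.4%, 19.7%, 16.6% and 10.0%. Of 50 further genes tested of the kind that type I interferon induces, 14 rose and 0 fell in HSS against PSS, 10 rose and 2 fell in Vortex against PSS, and 0 rose and 9 fell in Vortex against HSS. Their median log2 fold changes were 1.12, 0.52 and -0.67, against -0.005, 0.11 and 0.10 over all tested genes. With Vortex replicate 2 left out the numbers were 36 and 0, 22 and 3, and 1 and 20. Without HSS replicate 1, 2 or 3 they were 10 and 0, 4 and 2, and 0 and 0. Without PSS replicate 1, 2 or 3, 10 rose in HSS and 2, 3 or 4 rose in Vortex against PSS, and 3, 6 or 8 fell in Vortex against HSS. Without Vortex replicate 3, 4 rose in Vortex against PSS. Lgals3bp, a secreted glycoprotein, rose by 2.51 ± 0.22 in HSS (log2 ± SE, edgeR adjusted p = 0.00122) and by 2.48 ± 0.22 in Vortex (adjusted p = 0.00184) against PSS. Rnf213, a large ubiquitin ligase known as a susceptibility gene of moyamoya disease of brain arteries in humans, had 971, 1014 and 1004 CPM in the HSS libraries, 306, 356 and 388 CPM in the Vortex libraries and 298, 335 and 227 CPM in the PSS libraries. The HSS libraries stood alone, with a rise of 1.80 ± 0.19 over PSS (edgeR adjusted p = 0.00158), and Vortex over HSS gave -1.51 ± 0.19 (adjusted p = 0.00753).

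Of 10 further GBP and IRG genes tested, 3 rose and 0 fell in HSS against PSS, 0 rose and 1 fell in Vortex against PSS, and 0 rose and 1 fell in Vortex against HSS, with medians of 1.25, 0.34 and -1.22. With any 1 HSS or PSS library left out 0 rose in HSS against PSS, without HSS replicate 1, 2 or 3 0 fell in Vortex against HSS, and without Vortex replicate 2 the numbers were 5 and 0, 4 and 1, and 0 and 4. Without Vortex replicate 1 or 3, 2 fell in Vortex against HSS, and without Vortex replicate 3, 2 fell in Vortex against PSS. Gbp2b (Gbp1) had 91.2, 93.6 and 96.9 CPM in the HSS libraries, 28.7, 2.48 and 23.6 CPM in the Vortex libraries and 8.64, 8.17 and 12.6 CPM in the PSS libraries. As in the 4 GBP members, HSS was high, Vortex replicates 1 and 3 stood between, and Vortex replicate 2 was below PSS, with 3.26 ± 0.70 in HSS against PSS (log2 ± SE, edgeR adjusted p = 0.025). Gbp9 had 80.8, 83.6 and 79.9 CPM in the HSS libraries, 28.2, 28.2 and 37.3 CPM in the Vortex libraries and 63, 60.0 and 73.7 CPM in the PSS libraries. It differed from them, with every Vortex library below every PSS library and -1.07 ± 0.18 in Vortex against PSS (edgeR adjusted p = 0.00807).

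Of 14 further genes tested of the kind that type II interferon induces, 1 rose and 0 fell in HSS against PSS, 3 rose and 0 fell in Vortex against PSS, and 0 rose and 0 fell in Vortex against HSS in edgeR, with medians of 0.79, 0.85 and 0.12. The share of 1 in 14 in HSS is near that of all tested genes. At an unadjusted p under 0.05, 2 were higher in Vortex against HSS, and the DESeq2 Wald test called 2 higher. Leaving out Vortex replicate 2, 7 rose in HSS and 10 in Vortex against PSS, and without PSS replicate 1 it was 0 in both. Without PSS replicate 3 it was 0 in HSS, and without HSS replicate 1, 2 or 3 or PSS replicate 2 or 3 it was 2 in Vortex. Without Vortex replicate 1 or 3, 2 rose in HSS. Nos2, inducible nitric oxide synthase, had 236, 245 and 254 CPM in the HSS libraries, 154, 1.38 and 183 CPM in the Vortex libraries and 0, 0.146 and 0.189 CPM in the PSS libraries. It was near 0 in PSS and low in Vortex replicate 2, and high in the other 5 libraries. Nos2 passed the test in HSS (edgeR adjusted p = 0.00805) and in Vortex (adjusted p = 0.009) against PSS. Of 18 sensors, adaptors and kinases tested, 5 rose and 1 fell in HSS against PSS, and 4 rose and 1 fell in Vortex against PSS, with medians of 0.53 and 0.37. The numbers that rose were 10 and 7 without Vortex replicate 2, and in HSS against PSS 2 without HSS replicate 1, 2 or 3 or PSS replicate 1 and 3 without PSS replicate 2. For Vortex against PSS 1 rose without PSS replicate 1 and 2 without PSS replicate 2. Ikbke, a kinase that activates interferon regulatory factors, had 132, 139 and 136 CPM in the HSS libraries, 133, 58.2 and 184 CPM in the Vortex libraries and 22.1, 24.3 and 17.5 CPM in the PSS libraries. All HSS and Vortex libraries lay above all PSS libraries, with 2.67 ± 0.38 in HSS (edgeR adjusted p = 0.00475) and 2.55 ± 0.37 in Vortex (adjusted p = 0.00516) against PSS. Of 10 feedback inhibitors tested, 0 passed edgeR's test in HSS against PSS, where 4 were higher at an unadjusted p under 0.05 and the DESeq2 Wald test called 3. In Vortex against PSS 3 rose, Socs1, Socs3 and Irf2. The medians of the 10 were 0.44 in HSS and 0.14 in Vortex against PSS. In the second comparison 1 rose without HSS replicate 1, 2 or 3 or PSS replicate 2, 0 without PSS replicate 1 or 3, and 3 without Vortex replicate 2, where 5 rose in HSS against PSS. Socs3, an inhibitor of cytokine signalling, gave 1.92 ± 0.50 in HSS against PSS (adjusted p = 0.0508) and 2.30 ± 0.51 in Vortex against PSS (adjusted p = 0.0203).

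The members were also set apart by the ISRE-type match in the promoter window. Between HSS and PSS the 20 with a match had a median log2 fold change of 1.80 and 7 of them rose, and the 15 without a match had a median of 1.23 and 7 rose. The medians in Vortex against HSS were -1.67 with a match and -0.77 without, and 5 and 3 fell. These medians are a description with no test.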

How the data were processed

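Whole-number read counts and FPKM per gene were deposited by the authors in 1 table of all 9 libraries. The submitters' processing notes name HISAT2, HTSeq 0.13.5 and the build GRCm39, and the strand setting of the counting was not stated in the sources used here. The counts, library totals and deposited FPKM of a gene implied 1 length across libraries for 100% of 31232 genes (relative tolerance 1e-06). The lengths themselves were not checked, and a gene with counts in only 1 library passes by design.

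Counts were tested with edgeR 4.0.16 in R 4.3.3 (filterByExpr, TMM, quasi-likelihood F-test, 1 fit of all 9 libraries, Benjamini-Hochberg adjustment over 15774 genes, threshold 0.05), and the common biological coefficient of variation was 0.35. CPM values use TMM-scaled library sizes, and log2 fold changes were computed from the deposited counts. Total counts ran from 17407217 to 22965802 per library. The procedure was run on simulated counts with the same spread in every group, no GC trend and no library standing apart. These settings differ from the data, so that run does not show how the calls behave here. Alternatives used DESeq2 1.42.0, limma 3.58.1 (voom, and log2 of FPKM plus a pseudocount of 1 or 0.1), other scalings and filters, the replicate block, 6 libraries, each library left out, and removal of a GC trend (lowess span 0.3). GC content came from GENCODE M21 and covered 98.5% of tested genes and 45 of 45 members.

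The members, the pathway lists and the marker lists were chosen with earlier results of these data known. All 45 members could be named. Values by library were given for every GBP, IRG, IFIT, OAS and MX gene and, in the other roles, for the 3 members with the smallest p and the one with the highest FPKM, and of the pathway lists for genes among the 2 with the smallest p in HSS or Vortex against PSS and for Ifnb1, Ifnar1 and Ifngr1. Samples were grouped by their labels. Some items are not reported here.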

Additional observations from a re-analysis of the deposited data

How the results depend on the processing

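The number of the 45 genes called depended on the test and on the libraries in the fit. In HSS against PSS, 20 rose with edgeR and all 9 libraries, 35 with the DESeq2 Wald test, 43 with 6 libraries, 40 with the GC trend removed and without Vortex replicate 2, and 1 to 41 with 1 library left out. Of all genes 4.18%, 7.95%, 20.4% and 15.1% rose in the same settings, and 0.796% to 15.4% with 1 library left out. In Vortex against PSS 5 rose, against 3 with library totals, 2 with no filter, 10 with DESeq2, 3 with voom, 2 with log2 of FPKM plus 1 or plus 0.1, 0 with 6 libraries, 2 with the GC trend removed, 22 when Vortex replicate 2 was also left out, and 0 to 22 with 1 library left out. The shares of all genes that rose in the same settings were 8.33%, 5.29%, 2.47%, 12.9%, 7.26%, 4.82% or 4.86%, 0.264%, 6.02% and 20%. With 1 library left out they were 1.81% to 19.7%. In this comparison 1 fell, against 2 with DESeq2, voom or either FPKM scale, 0 with 6 libraries and 1 to 7 with 1 library left out. Of all genes 5.03% fell, against 9.34% with DESeq2, 6.07% with voom and 9.7% or 8.99% on the FPKM scales. With 6 libraries 0.224% fell, and with 1 library left out 1.37% to 16.6%. In Vortex against HSS 12 fell, against 24 with DESeq2, 20 with log2 of FPKM plus 1, 1 with 6 libraries, 29 with the GC trend removed and without Vortex replicate 2, and 1 to 29 with 1 library left out. Of all genes 2.67%, 6.33%, 5.17%, 0.126% and 11.2% fell in the same settings, and 0.0555% to 10% with 1 library left out. The replicate block gave 19 higher and 0 lower in HSS against PSS, 3 and 1 in Vortex against PSS, and 0 and 9 in Vortex against HSS. Of all genes 2.43% and 2.47%, 4.7% and 3.28%, and 1.25% and 1.01% rose and fell with that block. Deviations of same-numbered libraries from their group means had correlations of -0.123 to 0.118 over all tested genes. With 3 libraries a group and Vortex replicate 2 standing apart, these values cannot decide whether the numbers pair the libraries.

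Of 1953 alternative values for members that were called with all libraries or without Vortex replicate 2, 28 had the other sign, each in Vortex against PSS. Mx1 was at -0.068 with library totals, -0.089 with the replicate block, -0.36 with voom, -0.14 with FPKM plus 1, -0.40 with FPKM plus 0.1 and -0.37 to 0.58 with 1 library left out. Rsad2 was at -0.046, -0.091, -0.34, -0.43 and -0.50 under the same 5 alternatives and at -0.29 to 0.60 with 1 library left out. Gbp7 was at -0.088, -0.14, -0.38, -0.28 and -0.49, at -0.00085 with no filter and at -0.45 to 0.54 with 1 library left out. Gbp3 was at -0.12 with voom, -0.15 with FPKM plus 1 and -0.25 with FPKM plus 0.1. Ifi44 was at -0.13 with voom and -0.19 with FPKM plus 0.1. The cause was not tested. For the 42 pairs of member and comparison with no such call, 63 of 882 alternative values had the other sign and 0 passed the test with it. With 3 libraries a group and Vortex libraries that differ this much, a call missed in Vortex does not show that a gene was unchanged.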
